A study of Arabidopsis thaliana with 12 samples.

Results

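The TCP genes described here are 10 transcription factor genes of leaf growth in Arabidopsis thaliana, picked by locus from the 21428 loci with a value on the arrays. They comprise 8 CIN-type genes (TCP2, TCP3, TCP4, TCP5, TCP10, TCP13, TCP17 and TCP24) and the class I genes TCP14 and TCP15, and all 10 were measured in every sample. The choice rested on gene identity and was made with earlier results of these data known. The study used Col-0 plants carrying 35S::gai-GR, in which a viral promoter that is active in most cells drives gai, a form of the DELLA protein GAI that gibberellin cannot remove, joined to the hormone-binding part of the rat glucocorticoid receptor. The steroid dexamethasone (DEX) lets this fusion protein enter the nucleus. Plants of 9DAS were moved to medium with 5 µM DEX or with its solvent DMSO (mock), and leaf 3 was taken after 1 h or 4 h. Each of the 4 groups (mock 1 h, DEX 1 h, mock 4 h and DEX 4 h) held 3 arrays, labelled as biological replicates, with leaves of many plants pooled. The series text names 3 independent experiments, and the labels do not say which arrays share one. All plants carried the transgene, and DEX-treated plants without it were not used here, so effects of the steroid itself and of gai-GR cannot be told apart.

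TCP proteins share a DNA-binding and dimerization domain and fall into class I and class II. CIN-type genes, a branch of class II named after CINCINNATA of snapdragon, move leaf cells from division towards differentiation, and the microRNA miR319 cleaves the transcripts of TCP2, TCP3, TCP4, TCP10 and TCP24, whereas TCP5, TCP13 and TCP17 carry no miR319 site. TCP14 and TCP15 act on cell division and elongation, and DELLA proteins, the gibberellin-degraded repressors of growth, bind them and keep them off DNA.

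Values are log2 expression levels as deposited, 1 per locus, and they ranged from 4.43 to 14.1 over all loci. The array of mock 4 h replicate 2 stood apart, with a median over loci of 7.48 against 7.65 to 7.78 on the other 11 arrays. It also held the lowest value of its group for all 10 TCP genes, a count that was not made over all loci. Some results at 4 h are therefore given with and without it. The value of the GAI locus stayed between 12.8 and 13.0 on every array. All plants carried gai-GR, and its signal was not separated from that of the plant's own GAI gene. GA20OX1, a gibberellin biosynthesis gene that DELLA activity is known to induce, stood at 6.09, 5.71 and 6.54 in mock 4 h and at 10.40, 10.13 and 10.21 in DEX 4 h, and rose 17.6-fold.

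At 1 h, 1 of the 10 TCP genes fell and none rose. That gene was TCP17, and TCP14 showed the next largest difference without passing the test. Over all loci, 0.714% passed at an adjusted p under 0.05 in either direction (0.084% fell and 0.63% rose). The median log2 difference of the 10 genes was -0.17, beside 0.00 over all loci. In bulk tissue such a difference can come from fewer cells of a type or from less RNA per cell, and these cannot be told apart.

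TCP17 (AT5G08070_at), a CIN-type gene free of miR319 control, measured 7.84, 8.01 and 8.21 in mock 1 h and 7.09, 7.42 and 7.55 in DEX 1 h. Every DEX array lay below every mock array. The means were 8.02 ± 0.19 and 7.35 ± 0.24 (SD, n = 3 each), and TCP17 fell by 0.67 on the log2 scale (SE 0.14, 1.59-fold, adjusted p = 0.0361). This call was lost in 5 of the 12 fits that each left out 1 array: without mock 1 h replicate 2 (adjusted p = 0.146), mock 1 h replicate 3 (0.217), DEX 1 h replicate 1 (0.185), DEX 1 h replicate 2 (0.103) or DEX 4 h replicate 2 (0.0611). In those fits the difference stayed between -0.53 and -0.70. It was also lost when only the 1 h arrays were fitted (adjusted p = 0.0522).

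TCP14 (AT3G47620_at), a class I gene whose protein DELLAs bind, gave 10.46, 10.40 and 10.33 in mock 1 h and 9.83, 9.81 and 9.84 in DEX 1 h. Here too the groups did not overlap, and the DEX arrays lay within a narrow band. The log2 difference was -0.57 (SE 0.13, 95% interval -0.85 to -0.28) with an adjusted p of 0.0783, so it did not pass. It passed without mock 4 h replicate 2 (adjusted p = 0.0333), DEX 4 h replicate 2 (0.0453) or DEX 4 h replicate 3 (0.0335). These 4 h arrays matter at 1 h since all arrays share 1 estimate of the spread. In the other 9 fits that each left out 1 array TCP14 did not pass (adjusted p up to 0.369). It passed when only the 1 h arrays were fitted (0.00418). TCP14 and TCP17 were the 2 of the 10 genes with DEX arrays all below mock at 1 h, an order seen for 6.71% of all loci.

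The other 8 genes did not pass at 1 h, each with an adjusted p of 1. Their log2 differences ran from -0.27 for TCP13 to 0.09 for TCP4. TCP10 stood at 9.34, 9.53 and 9.52 in mock 1 h and 9.35, 9.56 and 9.50 in DEX 1 h, a difference of 0.00 with a 95% interval of -0.38 to 0.39. Intervals for the 8 genes reached down to between -0.38 and -0.68, so decreases of that size cannot be set aside at this number of arrays.

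**Figure D1:**
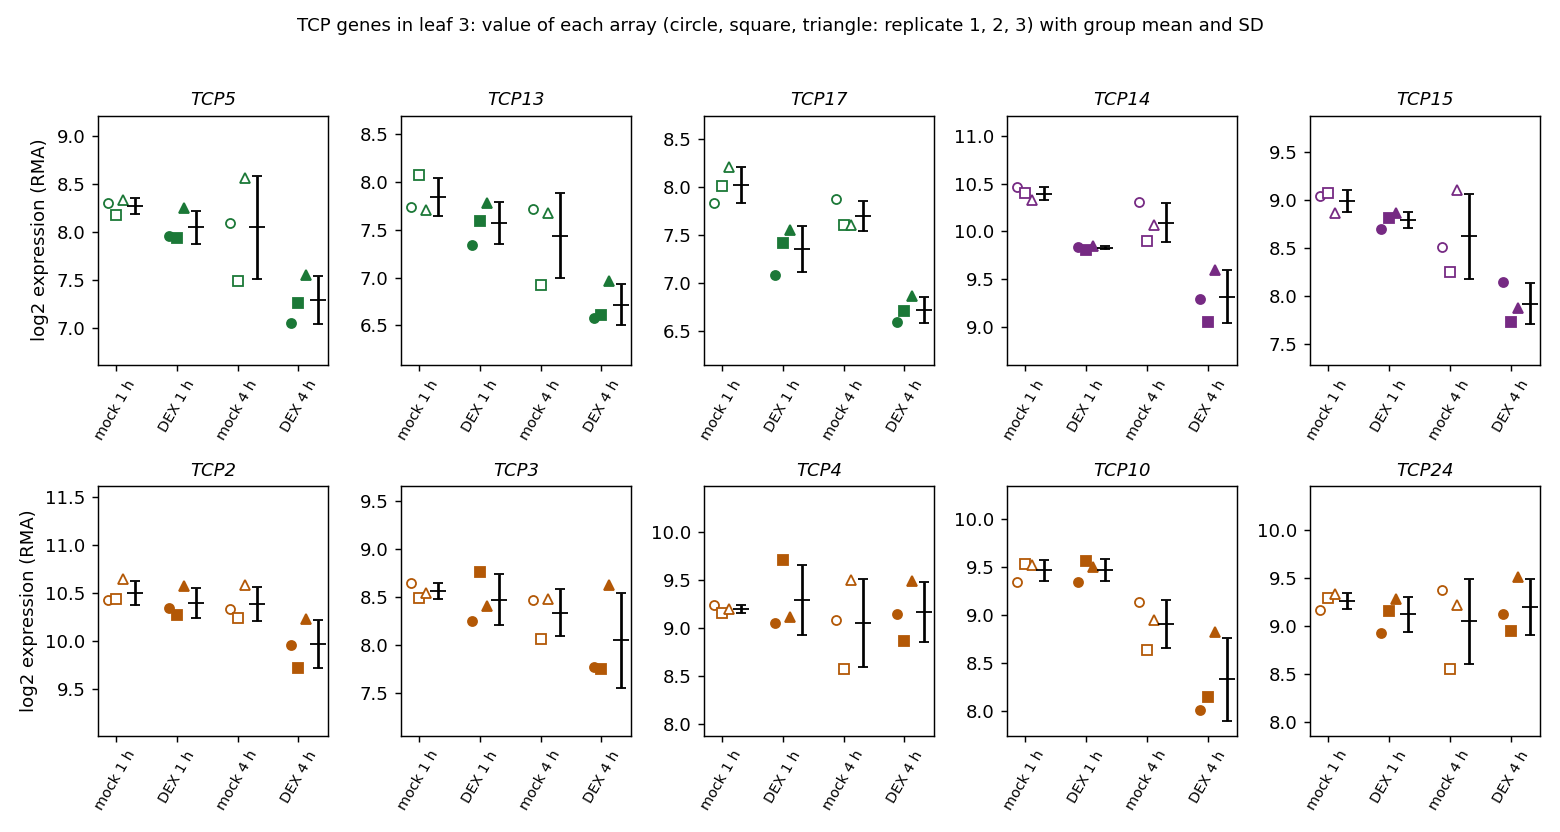
Log2 expression (y axis, RMA values) of each TCP gene on the 12 arrays, by group (x axis). Open symbols are mock and filled symbols DEX; circle, square and triangle are replicates 1, 2 and 3; the bar beside them is the mean with its SD (n = 3). In TCP17 and TCP14 every DEX array lies below every mock array of its time, while in TCP4 and TCP24 the groups overlap at both times.

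At 4 h, 5 of the 10 TCP genes fell and none rose. They were the 3 CIN-type genes without a miR319 site (TCP5, TCP13 and TCP17) and both class I genes (TCP14 and TCP15), while 0 of the 5 miR319 targets passed. Over all loci, 7.90% passed in either direction, 2.55% fell and 5.35% rose. The share of calls that were up was 67.7%, against 49.6% after a second quantile normalization and 40.0% with each array centred on its median, a scaling that moved the median of all loci by -0.11 and under which 7 TCP genes fell (TCP2 and TCP10 in addition) and none rose, beside 6.07% of all loci that fell. The median log2 difference of the 10 genes was -0.64, beside 0.02 over all loci. Without mock 4 h replicate 2 these medians were -0.79 and -0.01, and 6 of the 10 genes fell, beside 4.73% of all loci.

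Among the CIN-type genes without a miR319 site, which limit the growth of leaves and petals, TCP17 gave the largest decrease. It measured 7.87, 7.60 and 7.60 in mock 4 h and 6.59, 6.71 and 6.86 in DEX 4 h, with no overlap. The means were 7.69 ± 0.16 and 6.72 ± 0.14 (SD, n = 3 each), a fall of 1.97-fold (log2 difference -0.97, SE 0.14, adjusted p = 0.000284). The call held in 12 of 12 fits that each left out 1 array, with an adjusted p of at most 0.00255. Of all loci, 0.317% had a lower difference.

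TCP5 (AT5G60970_at) was spread widely in the mock arrays, at 8.09, 7.49 and 8.56, and lay at 7.06, 7.26 and 7.55 under DEX. The highest DEX array was above the lowest mock array, replicate 2, so the groups overlapped. TCP5 fell by 0.76 (SE 0.21, 1.69-fold, adjusted p = 0.0356). The call was lost in 7 of 12 fits: without mock 1 h replicate 1 (adjusted p = 0.0516), 2 (0.0509) or 3 (0.0506), mock 4 h replicate 1 (0.0863) or 3 (0.107, difference -0.50), and DEX 4 h replicate 1 (0.139) or 2 (0.108). Without mock 4 h replicate 2 the difference was -1.04 (adjusted p = 0.000685).

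TCP13 (AT3G02150_at), listed as PTF1 in RefSeq and closest to TCP5 and TCP17 within the family, measured 7.71, 6.92 and 7.67 in mock 4 h and 6.58, 6.61 and 6.96 in DEX 4 h. Again it was mock replicate 2 that reached into the DEX range. TCP13 fell by 0.72 (SE 0.19, 1.64-fold, adjusted p = 0.0330). The call was lost without mock 4 h replicate 1 (adjusted p = 0.117) or 3 (0.104) and without DEX 4 h replicate 1 (0.118) or 2 (0.122). Without mock 4 h replicate 2 the difference was -0.97 (adjusted p = 0.000692).

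The class I genes moved by a similar amount. TCP14 measured 10.31, 9.90 and 10.07 in mock 4 h and 9.30, 9.05 and 9.60 in DEX 4 h, again without overlap. It fell 1.71-fold (log2 difference -0.78, SE 0.13, adjusted p = 0.00143), and this call held in 12 of 12 fits that each left out 1 array (adjusted p of at most 0.00814).

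TCP15 (AT1G69690_at), which shares much of the function of TCP14, gave 8.51, 8.25 and 9.11 in mock 4 h and 8.15, 7.73 and 7.88 in DEX 4 h. The groups did not overlap, but the gap between DEX replicate 1 and mock replicate 2 was small. TCP15 fell by 0.70 (SE 0.17, 1.63-fold, adjusted p = 0.0211). The call was lost without mock 4 h replicate 3 (difference -0.46, adjusted p = 0.0503), DEX 4 h replicate 2 (0.102) or DEX 4 h replicate 3 (0.0653).

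**Figure D2:**
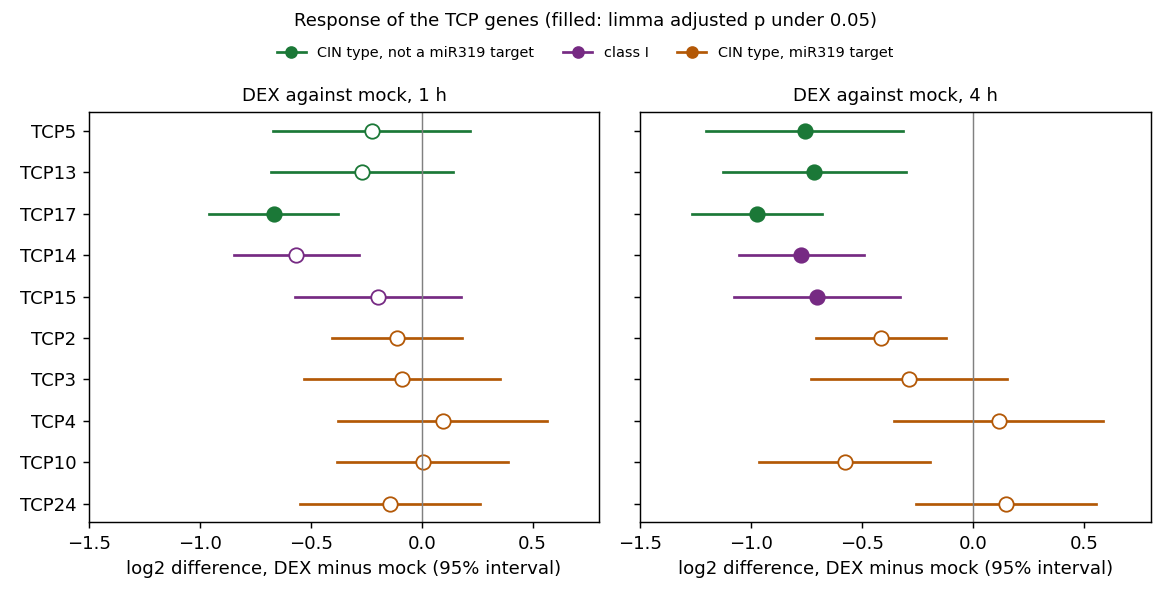
Log2 difference between DEX and mock (x axis) for each TCP gene at 1 h (left) and 4 h (right), with the 95% interval of the single gene from the limma fit. Filled points passed at an adjusted p under 0.05. At 1 h only TCP17 is filled, and at 4 h TCP5, TCP13, TCP17, TCP14 and TCP15 are.

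None of the 5 miR319 targets passed at 4 h, and they differed among themselves. Their median log2 difference was -0.29, against -0.76 for the 3 CIN-type genes without the site and -0.74 for both class I genes; the difference between these subgroups was not tested. TCP10 and TCP2 came closest, and both passed after a second quantile normalization or with each array centred on its median.

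TCP10 (AT2G31070_at) measured 9.14, 8.64 and 8.94 in mock 4 h and 8.01, 8.15 and 8.83 in DEX 4 h. DEX replicate 3 lay inside the mock range and the other DEX arrays below it. The log2 difference was -0.58 (SE 0.18, 95% interval -0.96 to -0.19, adjusted p = 0.0667). It passed without mock 4 h replicate 2 (difference -0.71, adjusted p = 0.0247) or without DEX 4 h replicate 3 (-0.83, 0.00225). In the other 10 fits that each left out 1 array it did not (adjusted p up to 0.239).

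TCP2 (AT4G18390_at) gave 10.33, 10.24 and 10.58 in mock 4 h and 9.96, 9.72 and 10.23 in DEX 4 h. All DEX arrays were below all mock arrays, though DEX replicate 3 and mock replicate 2 nearly met. The log2 difference of -0.42 (SE 0.14, 95% interval -0.71 to -0.12) had an adjusted p of 0.0825. It passed without DEX 4 h replicate 3 (difference -0.55, adjusted p = 0.0274). In the other 11 fits that each left out 1 array it did not (adjusted p up to 0.296).

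TCP3 (AT1G53230_at) split within the DEX group, at 7.76, 7.75 and 8.62, against 8.47, 8.05 and 8.48 in mock 4 h. DEX replicate 3 was the highest of the 6 arrays. The difference was -0.29 (SE 0.21, adjusted p = 0.477), and without DEX replicate 3 it was -0.58 (adjusted p = 0.0449). In the other 11 fits that each left out 1 array it did not pass (adjusted p up to 0.809).

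TCP4 (AT3G15030_at), a well-studied activator of leaf cell differentiation, measured 9.08, 8.58 and 9.50 in mock 4 h and 9.15, 8.86 and 9.49 in DEX 4 h, and TCP24 (AT1G30210_at) measured 9.38, 8.55 and 9.22 against 9.13, 8.94 and 9.51. In both genes the groups overlapped almost fully. The log2 differences were 0.11 (95% interval -0.36 to 0.59, adjusted p = 0.834) for TCP4 and 0.15 (-0.26 to 0.56, 0.734) for TCP24. Both turned negative without mock 4 h replicate 2, at -0.12 and -0.10, and without DEX 4 h replicate 3, at -0.05 and -0.01.

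**Figure D3:**
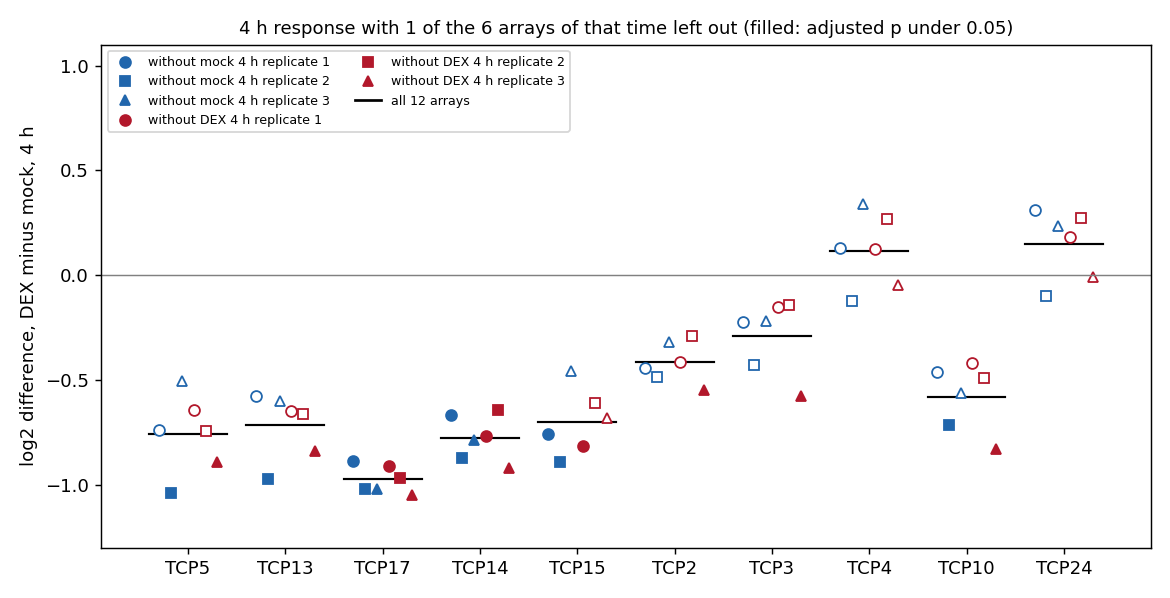
Log2 difference between DEX and mock at 4 h (y axis) for each TCP gene when 1 of the 6 arrays of that time is left out; the line is the value with all 12 arrays, blue marks a mock array and red a DEX array left out, and filled points passed at an adjusted p under 0.05. TCP17 and TCP14 stay filled throughout, and leaving out mock replicate 2 or DEX replicate 3 gives the lowest value for all 10 genes.

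Within the 4 h groups the arrays kept a common order over these genes. Mock replicate 2 was the lowest of its group for 10 of 10 genes, and DEX replicate 3 the highest of its group for 9 of 10, the exception being TCP15. The share of all loci with these orders was not counted, so they cannot be called particular to the TCP genes. Mock replicate 2 also had the lowest median over loci of all arrays (7.48). The mean over the 10 genes was 8.89, 8.42 and 8.97 in mock 4 h and 8.17, 8.08 and 8.55 in DEX 4 h, so DEX replicate 3 lay above mock replicate 2. Every DEX array lay below every mock array for 4 of the 10 genes (TCP2, TCP14, TCP15 and TCP17), an order seen for 7.34% of all loci. Without mock replicate 2 it held for 7 of 10, adding TCP5, TCP10 and TCP13, and for 18.5% of all loci.

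The responses at 1 h and 4 h were set against each other by testing their difference. None of the 10 genes passed this test, and 1.28% of all loci did. At an unadjusted p under 0.05 there was 1 gene (TCP10, -0.58 on the log2 scale, adjusted p = 0.393), beside 2473 of 21428 loci. Differences were negative, meaning lower at 4 h, for 8 of the 10 genes, with a median of -0.31 beside 0.03 over all loci. For TCP17 the difference was -0.31 (95% interval -0.72 to 0.10) and for TCP14 -0.21 (-0.61 to 0.19). A larger response at 4 h was thus not detectable for any single TCP gene with these arrays.

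The mock arrays show how the genes moved without DEX. From mock 1 h to mock 4 h none of the 10 genes passed (9.29% of all loci did). An unadjusted p under 0.05 was seen for 3 of them, beside 5240 of 21428 loci. All 10 differences were negative, from -0.12 for TCP2 to -0.56 for TCP10 (adjusted p = 0.0685). Their median was -0.26, beside -0.04 over all loci. Without mock 4 h replicate 2 these medians were -0.12 and -0.01, and the differences of TCP4, TCP5 and TCP24 were above 0, at 0.09, 0.05 and 0.03. TCP15 passed without mock 4 h replicate 3 (difference -0.61, adjusted p = 0.0140) and TCP10 without DEX 4 h replicate 3 (-0.56, 0.0148). Each did not pass in the other 11 fits that left out 1 array.

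From DEX 1 h to DEX 4 h, 7 of the 10 genes fell and none rose, beside 8.98% of all loci that fell and 19.4% that passed in either direction. This comparison uses the same DEX arrays as those above. TCP10 had the largest difference, from 9.47 ± 0.11 to 8.33 ± 0.44 (SD, n = 3 each), and fell by 1.14 (SE 0.18, adjusted p = 0.000574). TCP15, TCP13, TCP5, TCP17 and TCP14 fell by 0.88, 0.85, 0.76, 0.63 and 0.51.

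The smallest of these falls was that of TCP2, by 0.42 (adjusted p = 0.0423), and its call was lost in 7 of the 12 fits that each left out 1 array (adjusted p from 0.0534 to 0.172). TCP3 (-0.43), TCP4 (-0.13) and TCP24 (0.07) did not pass. Calls for TCP5 were lost without DEX 1 h replicate 3 (adjusted p = 0.0750), DEX 4 h replicate 1 (0.0816) or DEX 4 h replicate 2 (0.0596), and that for TCP14 without DEX 4 h replicate 2 (0.0675).

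Of the 24 TCP genes listed for the species, 17 had a value, and 0 of the 3 CYC/TB1-type genes, which include regulators of axillary buds, were among them. Among the 7 other class I genes with a value, 2 fell and 1 rose at 4 h, with a median log2 difference of -0.06. None passed at 1 h.

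CHE (AT5G08330, also called TCP21), which binds the promoter of the clock gene CCA1, measured 9.20, 8.78 and 9.44 in mock 4 h and 8.28, 8.13 and 8.05 in DEX 4 h. With no overlap between the groups, it fell 1.98-fold (log2 difference -0.99, SE 0.15, adjusted p = 0.000533). TCP9 (AT2G45680) gave 8.39, 7.96 and 8.03 in mock 4 h and 7.27, 7.34 and 7.35 in DEX 4 h, and fell 1.75-fold (-0.80, SE 0.14, adjusted p = 0.00148).

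TCP23 (AT1G35560) ran the other way. It stood at 5.95, 5.92 and 5.98 in mock 4 h and 6.51, 6.30 and 6.34 in DEX 4 h, and rose by 0.43 (SE 0.09, adjusted p = 0.00594). When every array was centred on its own median, the difference was 0.32 and did not pass (adjusted p = 0.0531). TCP8, TCP19, TCP20 and AT2G37000 did not pass, with differences of -0.06, -0.23, 0.25 and -0.03.

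Of 17 genes listed as targets of CIN-type TCP proteins, 3 rose and 4 fell at 4 h, and 2 rose and 1 fell at 1 h. The median log2 difference at 4 h was -0.03, and without mock 4 h replicate 2 the counts at 4 h were 3 and 6. HAT2, a homeodomain gene of the auxin response, measured 9.26, 8.90 and 9.41 in mock 4 h and 10.68, 10.35 and 10.30 in DEX 4 h, and rose 2.39-fold (1.25, SE 0.14).

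AS1, a MYB gene that keeps meristem genes off in leaves, moved down from 11.67, 11.16 and 11.60 to 10.74, 10.60 and 10.34, and fell by 0.91 (SE 0.14, adjusted p = 0.000469). YUC8, an auxin biosynthesis gene, rose by 0.71 (adjusted p = 0.00692), and KRP1, an inhibitor of cyclin-dependent kinases listed as ICK1 in RefSeq, rose by 0.60 (0.00783). At 1 h, HAT2 rose by 0.80 (adjusted p = 0.0133) and IAA3, a repressor of auxin signalling, by 0.62 (0.0269). CUC3, a boundary gene and the 1 target that fell at 1 h (by 0.54, adjusted p = 0.0269), was named after its values were seen.

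GRF genes, regulators of leaf cell proliferation, and their GIF coactivators are linked to CIN-type TCP proteins through miR396, which TCP4 induces. Of 10 such genes measured, 5 fell and none rose at 4 h, with a median log2 difference of -0.44. GRF5 measured 9.63, 9.31 and 9.53 in mock 4 h and 8.51, 8.61 and 8.47 in DEX 4 h, and fell 1.94-fold. GIF1, listed as AN3 in RefSeq, moved from 10.75, 10.56 and 10.89 to 9.96, 10.12 and 9.70 and fell 1.75-fold.

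The other 3 GRF genes that fell at 4 h were GRF6 by 0.67, GRF7 by 0.57 and GRF3 by 0.53. At 1 h only GRF6 passed, and it fell by 0.77 (adjusted p = 0.0133). GRF5 and GRF6 carry no miR396 site, unlike the other GRF genes of this species. Without mock 4 h replicate 2, 6 of the 10 genes fell at 4 h and none rose.

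Of 9 listed targets of class I TCP proteins, 1 rose (GA20OX1) and 1 fell at 4 h, with a median log2 difference of -0.25 (1 and 2 without mock 4 h replicate 2). GA20OX1 had already risen at 1 h, when none fell and the largest log2 difference of the list was 3.89. HBI1, a bHLH gene that promotes cell elongation, averaged 7.24 ± 0.21 in mock 4 h and 6.19 ± 0.30 in DEX 4 h (SD, n = 3 each). It fell 2.07-fold (adjusted p = 0.000206), and at 1 h its difference of -0.61 did not pass (0.0735), though it did after a second quantile normalization (0.0141) or with arrays centred (0.0270). The cell cycle genes on this list, CYCA1;1, CYCA2;3, CYCB1;1, RBR1 and PCNA2, did not pass at 4 h, with differences of 0.14, 0.16, -0.03, -0.41 and -0.26.

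Among 19 partners and regulators of TCP proteins, 1 rose and 3 fell at 4 h, with a median of -0.09 (1 and 4 without mock 4 h replicate 2). RGA, the DELLA gene most like GAI, measured 10.58, 10.27 and 10.27 in mock 4 h and 9.38, 9.39 and 9.42 in DEX 4 h, and fell 1.97-fold. It had fallen by 0.52 at 1 h (adjusted p = 0.0263). The DELLA gene RGL1 fell by 0.51 at 4 h. NGA1, which with its relatives acts beside CIN-type genes to end growth at leaf margins, fell by 0.96, while NGA4 rose by 0.39 and did not pass when arrays were centred (0.28, adjusted p = 0.0729).

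Several of these calls were lost when 1 array was left out. At 1 h, HAT2 did not pass without mock replicate 2 or 3 or DEX replicate 1 or 3 (adjusted p from 0.0750 to 0.0839), and IAA3 did not without mock replicate 1 or 3 or DEX replicate 1 or 3 (0.1002 to 0.171). GRF6 did not pass at 1 h without mock replicate 2 or DEX replicate 2 or 3 (0.0665 to 0.102), nor CUC3 without any of the mock arrays or DEX replicate 2 or 3 (0.0832 to 0.1502), nor RGA without any of the mock arrays or DEX replicate 1 or 3 (0.0767 to 0.169). At 4 h, GRF7 did not pass without mock replicate 1 or 3 or DEX replicate 2 or 3 (0.0565 to 0.0780), nor NGA4 without DEX replicate 2 (0.0703).

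**Figure D4:**
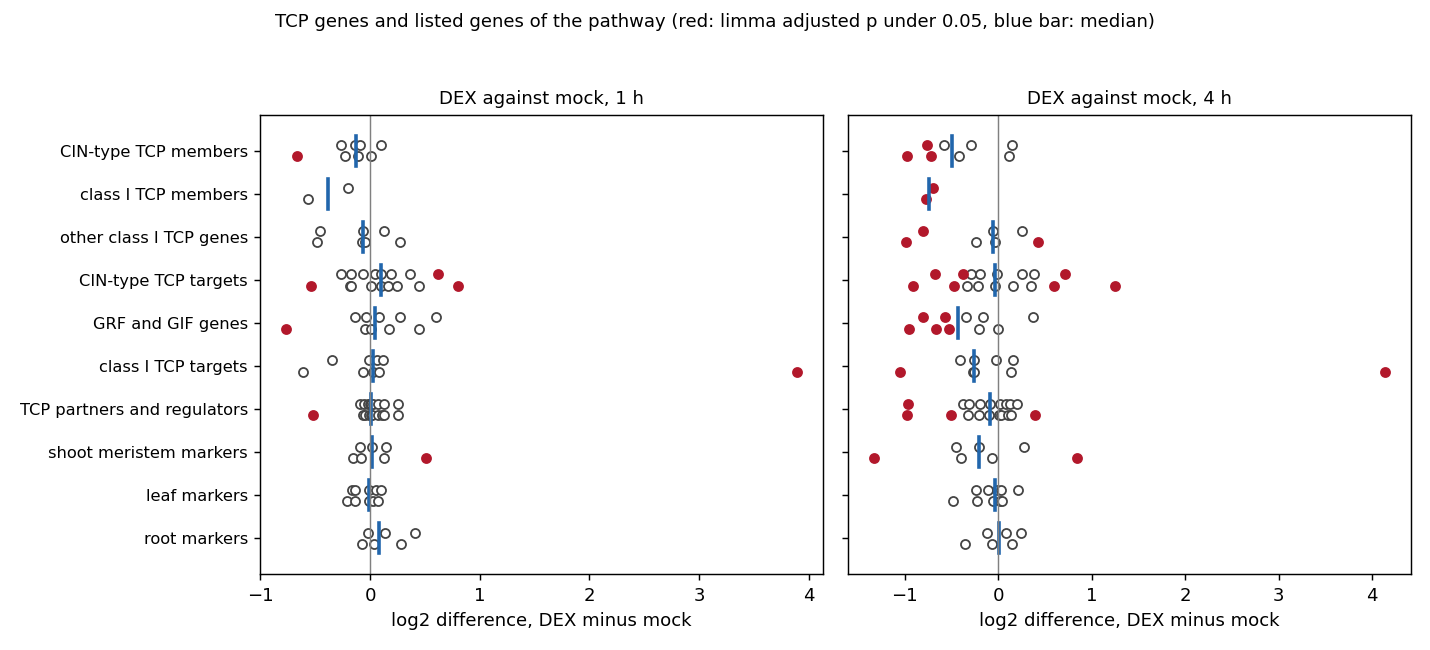
Log2 difference between DEX and mock (x axis) at 1 h (left) and 4 h (right) for the TCP genes and the listed genes of the pathway, 1 row per list and 1 circle per gene. Red circles passed at an adjusted p under 0.05 and the blue bar is the median of the list. At 4 h the medians of the TCP members lie below 0, GRF and GIF genes have 5 red circles below 0, and the red circle near 4 is GA20OX1.

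Markers of the tissue were read from the same arrays. None of 10 leaf markers passed at 1 h or 4 h, with a median log2 difference of -0.03 at 4 h, and the log2 of their summed level was 15.6 to 15.7 in both 4 h groups. Without mock 4 h replicate 2, 2 of the leaf markers fell at 4 h. Of 7 shoot meristem markers, CLV1 rose by 0.51 at 1 h and 0.84 at 4 h, and KNAT1 fell by 1.33 at 4 h. The median log2 difference of the 7 was 0.01 at 1 h and -0.21 at 4 h, where 5 of them had negative values. The log2 of their summed level was 9.87 to 9.88 in mock 1 h and 10.1 to 10.2 in DEX 1 h, and 9.97 to 10.3 in mock 4 h and 10.5 to 10.6 in DEX 4 h.

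WUS, which defines the meristem centre, was below the lower quartile of all loci on 12 of 12 arrays, while STM was above it on all. The 1 h call for CLV1 was lost without any 1 of the 1 h arrays or without DEX 4 h replicate 1 or 2 (adjusted p from 0.0538 to 0.175). None of 6 root markers passed at either time, and RHD6 lay below the lower quartile on 12 of 12 arrays. The log2 of their summed level was 10.66 to 10.70 in mock 1 h and 10.83 to 11.13 in DEX 1 h, without overlap, and 10.45 to 10.68 in mock 4 h and 10.63 to 10.71 in DEX 4 h. Their median log2 difference was 0.08 at 1 h and 0.01 at 4 h. The part of such cells in the TCP values was not tested.

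For the 3 TCP genes with the smallest p at 4 h, the loci with the most similar pattern were found by the root mean square difference of their log2 values over the 12 arrays, after each locus was centred on its own mean. TCP17 was nearest to ABCG19 (0.140), followed by the auxin-responsive genes SAUR12 (AT2G21220, 0.183) and SAUR50 (AT4G34760, 0.192), and TCP14 ranked 4 of 21427 at 0.192. For scale, the values of TCP17 varied about their own mean by 0.504. TCP14 was nearest to KCS1 (0.122), an enzyme of very-long-chain fatty acid synthesis, then HB34 (0.135) and ABCG13 (0.139). The nearest loci to TCP15 were the cell cycle kinase gene WEE1 (0.137), GTL1 (0.145), a regulator of trichome and stomatal development, and the guard cell kinase gene OST1 (0.156). All these loci were read on the same arrays under the same treatment, so the likeness is a description.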

How the data were processed

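Total RNA of leaf 3 was measured on 12 Affymetrix ATH1 arrays. The deposited values are log2 expression levels that the authors computed by RMA, per the submitters' processing notes; the software version and probe set definition are not given in the sources used here. The table held 21492 probe sets, of which 64 control sets were left out, leaving 21428 loci; no pair of the arrays held identical values. Genes of the lists carry common names, and 111 of these 114 were found among the RefSeq symbols or synonyms of their locus. Other gene names came from RefSeq by locus. From these values, limma 3.58.1 in R 4.3.3 fitted 1 mean per group over all 12 arrays (residual df 8). Tests were two-sided and moderated, with Benjamini-Hochberg adjustment over all loci and a threshold of 0.05. Intervals of 95% are for single genes. Arrays of a group are labelled as biological replicates, and their number limits precision. Members, gene lists and the rule for named genes (from each list those that passed, or with more than 5 the lowest p, and the 3 loci most like each of 3 members) were chosen with earlier results of these data known. Alternatives varied normalization, filters, spread estimate, threshold, replicate block and arrays used. List counts without mock 4 h replicate 2, and with centred arrays, were chosen after seeing the data.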

Additional observations from a re-analysis of the deposited data

Results flagged for a closer look

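None of the 10 TCP genes had a response that differed between 1 h and 4 h by the test of that difference, but 6 genes of the accompanying lists did. In all 6 the DEX response was lower at 4 h than at 1 h. The difference of the responses (log2, 4 h minus 1 h) was -0.70 for GRF3 (SE 0.15, adjusted p = 0.0313), -1.23 for GRF5 (0.14, 0.000383) and -1.02 for GRF7 (0.20, 0.0196). It was -0.76 for GIF1 (0.16, 0.0338), -1.07 for NGA1 (0.24, 0.0467) and -1.34 for the meristem marker KNAT1 (0.20, 0.00297). These values also take in the response at 1 h, so they are not the falls at 4 h. Over all loci 1.28% passed. With other scalings AS1 (adjusted p = 0.0262 after a second quantile normalization, 0.0118 with arrays centred) and RGL1 (0.0185 and 0.0296) passed too, and RGA after quantile normalization (0.0470). The calls for GRF5 and KNAT1 held when any 1 array was left out. Those for GRF3, GIF1 and NGA1 were each lost in 9 of 12 such fits, with adjusted p up to 0.0951, 0.0989 and 0.136, and that for GRF7 in 5 of 12 (up to 0.0697).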

How the results depend on the processing

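Of the 5 calls at 4 h, those of TCP17 and TCP14 passed under every alternative run, except that TCP14 did not without replicate 1 in all groups (adjusted p = 0.0793, range over its alternatives 0.000141 to 0.0793). TCP5, TCP13 and TCP15 did not pass at a threshold of 0.01 or when only the 4 h arrays were fitted, where 2 members passed, and TCP17 did not pass at 1 h at 0.01 or with only the 1 h arrays, where TCP14 passed in its place. Leaving out single arrays, or 1 replicate number in all groups, gave 1 to 7 members at 4 h and 0 to 2 at 1 h, 0 to 1 over time in mock and 3 to 8 over time in DEX. Under the same omissions the loci passing numbered 51 to 263 at 1 h (153 with all arrays), 871 to 2022 at 4 h (1693), 40 to 412 for the difference of the responses (274), 371 to 2439 over time in mock (1990) and 1468 to 5760 over time in DEX (4160). TCP14 passed at 1 h, making 2 members, with a second quantile normalization, arrays centred on their medians, a variance trend with robust fitting, or array weights. TCP10 passed over time in mock, as the 1 member, with arrays centred, the variance trend, or the brighter loci only. With only the arrays compared, 251 loci passed at 1 h, 994 at 4 h and 1086 over time in mock, and with array weights 378 at 1 h, 465 for the difference and 3120 over time in mock. At a threshold of 0.01 the loci were 96, 1008, 117, 748 and 2116 in that order of comparisons, with 0 members at 1 h, 2 at 4 h and 4 over time in DEX. The causes of these changes were not tested.

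The direction changed for TCP3, TCP4, TCP5, TCP10 and TCP24 in comparisons where they did not pass. Leave-out ranges at 1 h were -0.27 to 0.068 for TCP3, -0.14 to 0.23 for TCP4 and -0.057 to 0.066 for TCP10. At 4 h they were -0.12 to 0.34 for TCP4 and -0.10 to 0.34 for TCP24, and -0.22 to 0.24 for TCP4 in the difference of the responses. Over time in mock they were -0.37 to 0.093 for TCP4, -0.48 to 0.053 for TCP5 and -0.43 to 0.046 for TCP24, and over time in DEX -0.38 to 0.24 for TCP4 and -0.085 to 0.22 for TCP24. With array weights TCP10 was at -0.026 at 1 h, TCP4 and TCP24 at -0.055 and -0.077 at 4 h, and TCP4 at -0.11 in the difference and 0.00022 over time in mock. Centring gave -0.0068 for TCP10 at 1 h, -0.078 for TCP4 in the difference and -0.018 for TCP24 over time in DEX, and quantile normalization -0.086 for TCP4 in the difference.

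Of the loci called at 4 h, 67.7% were up, against 49.6% with a second quantile normalization and 40.0% with arrays centred, which moved the median of all loci by -0.11. With that centring 7 members passed at 4 h (adding TCP2 and TCP10), and the median of all 10 was -0.75. TCP2 and TCP10 also passed at 4 h after a second quantile normalization (adjusted p = 0.0215 and 0.0184). The same held with a variance trend and robust fitting (0.0495 and 0.0435). TCP10, but not TCP2, passed with array weights (0.0112), the brighter loci only (0.0460) or without replicate 3 in all groups (0.0277). For the difference the shares up were 75.5%, 57.4% and 57.7%, over time in mock 39.2%, 49.8% and 40.6% (60.02% without mock 4 h replicate 2), and over time in DEX 53.8%, 49.1% and 32.8%. The replicate block gave 6 members and 1697 loci at 4 h, adding TCP2 (adjusted p = 0.0112), and 1 member and 153 loci at 1 h; it changed no other call of a member. The replicate numbers are not shown to pair the arrays: deviations of same-numbered arrays correlated at 0.04, 0.06 and 0.19 at 1 h and -0.01, 0.19 and 0.10 at 4 h.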
